A study of Mus musculus with 20 samples.

Results

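Fetal mouse hearts exposed to the lowest TCDD dose of a dose series, 1.5 µg/kg, were compared with vehicle control hearts over all probe sets of the array. The 12 arrays were chosen by their titles, 4 for 1.5 µg/kg and 8 for controls, out of 20 in the series. Dams had been given TCDD in corn oil, or corn oil alone for the controls, by oral gavage on gestation day 14.5, and whole hearts were collected on day 17.5 for all groups. The other 8 arrays, 4 at 3 µg/kg and 4 at 6 µg/kg, entered the fit to share the estimate of the spread and served as the comparison between doses. On array 1 at 1.5 µg/kg the treatment day is written in an unclear form, which was left unused. No label tells single hearts from pooled hearts or litters, so each p measures only the spread between arrays, which may be technical.

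TCDD (2,3,7,8-tetrachlorodibenzo-p-dioxin) is a persistent dioxin that binds the aryl hydrocarbon receptor, AhR. Ligand-bound AhR leaves its cytosolic chaperones, enters the nucleus, pairs with Arnt and binds DNA at sites that hold the core letters GCGTG, from which it induces genes of xenobiotic metabolism such as the cytochrome P450 enzymes Cyp1a1 and Cyp1b1. The developing heart is a known target of TCDD toxicity in birds, fish and mice.

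Signals are MAS5 intensities brought to a trimmed mean of 500 on each array, and changes are differences of log2(signal + 32), 1.5 µg/kg minus control. At low signals this scale understates the change. Median signals of the 12 arrays lay between 171 and 201, and correlations across probe sets between 0.945 and 0.978. The number of arrays limits the precision, with a median standard error of 0.14 over the 8097 kept probe sets. The heart muscle genes Myh6, Actc1, Tnnt2, Nppa, Myl7 and Myl2 lay between the 97.9th and the 99.9th percentile of signal, as the tissue label says. The mean 3′ to 5′ log2 ratio of the β-actin and Gapdh control probe sets, a sign of RNA integrity, was −0.034 to 0.073 at 1.5 µg/kg and 0.022 to 0.299 in controls, so 3 of the 4 TCDD arrays lay below every control. With that ratio as a covariate, 11 of the 17 calls described below remained, while the total of calls rose, as given in the closing section. The calls that ended were those of Rae1 (adjusted p = 0.0559), Cd74 (0.0573), Cryl1 (0.0576), Clcn7 (0.0798), Nup188 (0.094) and the probe set without a gene symbol (0.102).

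At 1.5 µg/kg, 17 probe sets changed against controls, 16 higher and 1 lower, which is 0.21% of the 8097 tested (0.198% higher and 0.0124% lower; limma, adjusted p under 0.05). They cover the AhR targets Cyp1b1 and Cyp1a1, the muscle protein gene Sh3bgr, the chromatin and SUMO genes Mtf2 and Pias3, the membrane and lysosome genes Lrp10 and Clcn7, the matrix gene Hspg2, the junction gene Jup, the nuclear pore and export genes Nup188 and Rae1, the immune genes Cd74 and Cma1, the signalling genes Mknk2 and Zranb1, the metabolic gene Cryl1 and a probe set without a gene symbol. For 14 of the 17, all 4 TCDD arrays lay outside the range of the 8 controls. Over all kept probe sets, 1.06% had all 4 arrays above every control and 0.395% had all 4 below. The changes were small for most genes: the median absolute log2 change was 0.13 and the 95th percentile 0.45. Before adjustment, p was under 0.05 for 12.6% of probe sets (7.45% higher and 5.16% lower), 1021 where 405 would be the chance count, and 51.9% had a change above 0. With the brightest probe set of each gene, 51.7% of the 6099 kept genes were higher and 48.3% lower. List counts below are to be read beside these shares.

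**Figure D1:**
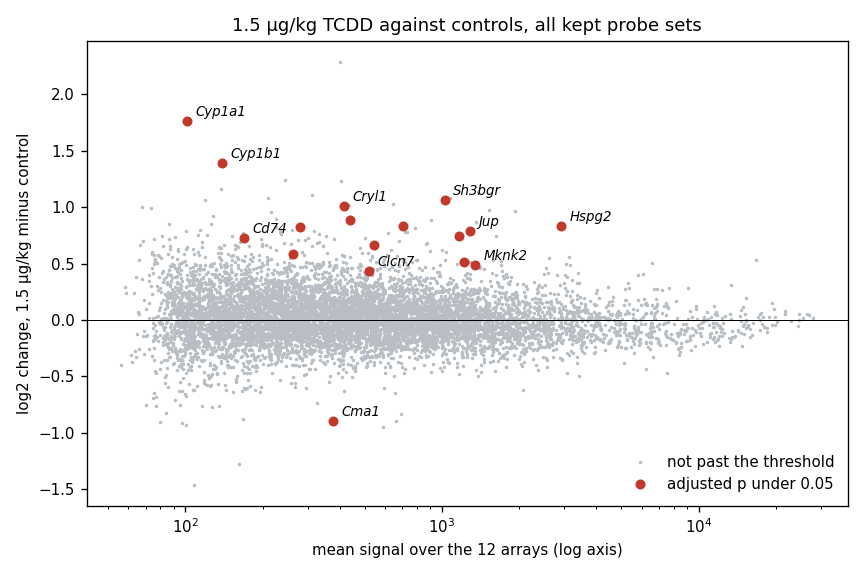
Log2 change at 1.5 µg/kg TCDD minus control against the mean signal of the 12 arrays on a log axis, one point per kept probe set. The 17 red points passed the adjusted threshold: 16 lie above 0, led by Cyp1a1 at 1.76, and Cma1 lies below at −0.89.

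The AhR targets were read first because they check the exposure. The promoters of both cytochrome P450 genes hold the core letters of the AhR binding site once, and the promoter of Cma1, the gene that fell, does not hold them. Neither do those of Pias3, Mtf2 and Jup, which rose. The first 3 are shown here as 250 bases before to 50 bases after the RefSeq start on GRCm38.p6, in the direction of the gene, with GCGTG or its reverse complement CACGC in capitals. The Cyp1a1 promoter lies at chr9:57697363-57697662 on the plus strand, that of Cyp1b1 at chr17:79715012-79715311 on the minus strand and that of Cma1 at chr14:55944626-55944925 on the minus strand.
Cyp1a1: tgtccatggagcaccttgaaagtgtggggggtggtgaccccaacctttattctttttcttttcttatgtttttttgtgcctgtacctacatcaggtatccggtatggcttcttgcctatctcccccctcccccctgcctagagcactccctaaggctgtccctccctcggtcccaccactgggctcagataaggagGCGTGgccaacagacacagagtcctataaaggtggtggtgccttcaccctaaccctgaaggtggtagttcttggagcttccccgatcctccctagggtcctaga
Cyp1b1: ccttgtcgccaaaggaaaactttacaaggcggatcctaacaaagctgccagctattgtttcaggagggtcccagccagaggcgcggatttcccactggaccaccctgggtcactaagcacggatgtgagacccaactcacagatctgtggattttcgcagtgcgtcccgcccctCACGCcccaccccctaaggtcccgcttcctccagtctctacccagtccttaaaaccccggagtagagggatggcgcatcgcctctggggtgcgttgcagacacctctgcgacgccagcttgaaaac
Cma1: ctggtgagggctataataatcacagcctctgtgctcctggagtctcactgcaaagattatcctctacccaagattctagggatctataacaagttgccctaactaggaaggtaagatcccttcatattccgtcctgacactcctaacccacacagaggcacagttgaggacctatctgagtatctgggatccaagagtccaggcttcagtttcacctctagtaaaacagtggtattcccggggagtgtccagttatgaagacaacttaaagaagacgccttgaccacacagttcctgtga
Read on both strands, GCGTG was found in 32.4% of all 32851 promoters of this length and in 50.4% of 6374 promoters of kept genes. Of the called genes, 14 had promoters in the table, 17 promoters in all, and 11 of these promoters, from 10 genes, held it. A match is a description of letters and not a binding site.

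On the same build, RefSeq places the called genes described below at chr17:79706940-79715061 (Cyp1b1), chr9:57687928-57703824 (Cyp1a1), chr16:96200470-96228933 (Sh3bgr), chr5:108065660-108109219 (Mtf2), chr3:96696361-96706070 (Pias3), chr14:54464137-54470292 (Lrp10), chr4:137468751-137570630 (Hspg2), chr11:100368856-100397839 (Jup) and chr14:55941451-55944675 (Cma1). The array reads transcripts, and where in each gene its probes lie was not used.

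Cyp1b1, which oxidises steroids and aromatic hydrocarbons, had signals of 186, 292, 254 and 307 in the 4 arrays at 1.5 µg/kg, against 45.9 to 112 with a median of 82.2 in the 8 controls. Every TCDD array stood above every control. The mean was 260 ± 54.1 over arrays at 1.5 µg/kg (SD, n = 4) and 79.1 ± 19.4 over control arrays (SD, n = 8), a log2 change of 1.39 ± 0.17 (SE; limma adjusted p = 0.000174). Cyp1a1, the enzyme most used as a readout of AhR activity, had 93.6, 188, 205 and 411 at 1.5 µg/kg, against 15.4 to 70.6 with a median of 32.4 in controls. Again no TCDD array overlapped the controls, but array 1 was closest to them and array 4 was highest. The log2 change was 1.76 ± 0.28 (limma adjusted p = 0.00681). Both genes had small control signals, below the array medians. A further Cyp1a1 probe set had 69.3, 96.8, 108 and 55.2 at 1.5 µg/kg, within or below the control range of 64.5 to 174, and did not pass (log2 −0.13). That sign turned with the 3′ to 5′ ratio as a covariate. The calls of Cyp1b1 and Cyp1a1 remained whichever of the 12 arrays was left out. Cyp1a1 was past the threshold against controls 5 to 8 alone (1.79, adjusted p = 0.00616) and not against controls 1 to 4 alone (1.74, adjusted p = 0.0573).

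Other genes of the AhR pathway did not pass. Of 11 AhR target genes on the array 6 were measured above the filter, and Cyp1a1 and Cyp1b1 were the 2 called. In all 5 of the 6 were higher, with a median of 0.24, against 0.008 over all 6099 genes. The filter counts arrays of every dose. Cyp1a1 and Cyp1b1, with control signals of at most 70.6 and 112, could enter it through their TCDD arrays. That favours higher genes, so the count and the median are no separate result. Aldh3a1, an aldehyde dehydrogenase, had 124, 106, 164 and 235 at 1.5 µg/kg, against 34.1 to 183 in controls (log2 0.30 ± 0.26). The quinone reductase Nqo1 stood at −0.05 and 0.15 on its probe sets, and the first of these changed sign without array 1. Tiparp, a mono-ADP-ribosyltransferase that AhR induces, was at 0.04 and turned negative under 7 of the alternatives. Ahrr, the AhR repressor, lay below the filter with 92, 68.1, 85.3 and 50.7 at 1.5 µg/kg, against 19.3 to 82.1 in controls, so 2 of 4 arrays were above every control (two-sided exact permutation p = 0.18, adjusted p = 0.381 over 5 genes). Cyp1a2, Gsta1, Xdh and Aldh1a3 were the other 4 genes below the filter, with exact p of 0.972, 0.305, 0.246 and 0.224. The receptor Ahr (0.06 ± 0.22), its partner Arnt (−0.18 ± 0.14), the coactivator Ncoa1 (0.35 ± 0.22) and the chaperone Hsp90aa1 (0.05 ± 0.09) were measured in both groups and not called. The signs of Ahr and Hsp90aa1 changed under some alternatives.

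Sh3bgr encodes a small glutamate-rich protein found in heart and skeletal muscle. The called probe set had 1440.3, 1794, 1914 and 1208 in the arrays at 1.5 µg/kg, against 516 to 1003.0 with a median of 746 in controls. All TCDD arrays stood above all controls, by a log2 change of 1.06 ± 0.16 (limma adjusted p = 0.00318). Its call remained whichever array was left out and with either set of 4 controls (1.22 for controls 1 to 4 and 0.90 for controls 5 to 8). A brighter probe set of the same gene had 7182, 6738, 6902 and 8213 at 1.5 µg/kg, against 7019 to 9763 in controls. Its log2 change was −0.18 ± 0.08 and did not pass. The probe sets of Sh3bgr disagree in direction, and which transcripts each reads was not tested.

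Mtf2 and Pias3 encode regulators of chromatin and of transcription factors. Mtf2, which recruits the Polycomb complex PRC2 to DNA, had 829, 632, 492 and 644 at 1.5 µg/kg, against 246 to 406 in controls with a median of 333. All 4 arrays were above all controls and array 1 was highest (log2 0.89 ± 0.15, limma adjusted p = 0.00732). Without array 1 it was just over the threshold (adjusted p = 0.0517). A further Mtf2 probe set stood at 0.03, with a sign that turned under 5 alternatives. Pias3, a SUMO ligase that binds STAT factors, had 524, 440, 334 and 332 at 1.5 µg/kg, against 144 to 277 in controls with a median of 226. It too rose in all 4 arrays (0.83 ± 0.15, adjusted p = 0.0184), and its call ended without array 1 or array 2 (adjusted p 0.122 and 0.156). Further Pias3 probe sets were at 0.18 and 0.05. In the list of PRC2 and its partners 8 of 10 measured genes were higher with a median of 0.06, which changed sign under 1 of 23 alternatives, and 0 of these brightest probe sets were called. Jarid2, a DNA-binding partner, was at 0.27 and the histone-binding subunit Rbbp7 at −0.13. In the SUMO list 4 of 7 were higher and Pias3 was the 1 called, while the related ligase Pias1 was at 0.23.

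A membrane receptor gene and a lysosome gene had small standard errors. Lrp10, a receptor of the low-density lipoprotein receptor family, had 1575, 1749, 1368 and 1427 at 1.5 µg/kg, against 934 to 1189 with a median of 1060.1 in controls. All 4 TCDD arrays were above all controls, although the change was small (0.51 ± 0.09, limma adjusted p = 0.0184). A dim further probe set was at 0.72 ± 0.35. Clcn7, a chloride and proton exchanger of lysosomes, had 681, 678, 565 and 611 at 1.5 µg/kg, against 412 to 513 with a median of 468 in controls, again with no overlap (0.43 ± 0.09, adjusted p = 0.0441). Its other probe set was at −0.13. The call of Lrp10 ended without array 1 or 2 (adjusted p 0.0659 and 0.193). Clcn7 was lost without arrays 1, 2 or 4 or any of controls 1, 3, 4, 5, 6, 7 and 8 (adjusted p 0.0542 to 0.311).

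Matrix and junction genes followed. Hspg2 encodes perlecan, the heparan sulfate proteoglycan of basement membranes. It had signals of 4489, 5386, 3990.4 and 2780 at 1.5 µg/kg, against 1611 to 2778 with a median of 2411 in controls. The first 3 arrays were well above the controls and array 4 lay just above the highest control (0.83 ± 0.17, limma adjusted p = 0.032). Jup encodes plakoglobin, which links cadherins to the cytoskeleton at desmosomes and adherens junctions of the intercalated disc. It had 2347, 1862, 1468 and 1525 at 1.5 µg/kg, against 806 to 1290.0 in controls with a median of 1058, with no overlap (0.79 ± 0.16, adjusted p = 0.0388). Hspg2 lost its call without arrays 1 or 2 or controls 3, 5, 6 or 7 (adjusted p 0.0521 to 0.311). Jup lost it without arrays 1 or 2 or any of controls 1, 2, 3, 5, 6 and 7 (0.0501 to 0.249). Jup also passed against neither controls 1 to 4 alone (limma adjusted p = 0.0871) nor controls 5 to 8 alone (0.0634). Its call ended too without a filter (0.0624), without the intensity trend (0.0719), with the replicate number as a block (0.141) and with a minimum change of 1.2-fold.

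No other measured gene of the lists that hold them passed. In the basement membrane list 13 of 17 genes were higher with a median of 0.06 and Hspg2 was the 1 called. The proteoglycan Agrn was at 0.19, the collagen IV chain Col4a5 at 0.21 and the laminin chain Lamb1 at −0.14, none of which passed. In the intercalated disc and junction list 10 of 19 were higher with a median of 0.04, which changed sign under 4 of 23 alternatives, and Jup was the 1 called. The catenin Ctnnd1 was at 0.35, β-catenin (Ctnnb1) at −0.20 and plakophilin Pkp2 at −0.15. The fibrillar and elastic matrix list stood further from the rest of the array, with 23 of 26 genes higher and a median of 0.24. In that direction 11 reached p under 0.05 before adjustment, but 0 passed after it. Over the array 51.7% of kept genes were higher, and 7.45% of probe sets were higher with p under 0.05. Col6a2, a collagen VI chain, had 3845, 3639, 2805 and 3011 at 1.5 µg/kg, against 1678 to 2671 in controls, with no overlap (0.55 ± 0.13, limma adjusted p = 0.0793). The elastin gene Eln had 21992, 25456, 16336 and 20461 at 1.5 µg/kg, against 9354 to 17433 in controls, so array 3 lay within the control range (0.54 ± 0.17, adjusted p = 0.188). Tnxb was at 0.69 and Col6a3 at 0.32. Col6a2 passed without array 3 (adjusted p = 0.0402). Against controls 1 to 4 alone and controls 5 to 8 alone, Col6a2 was at 0.38 and 0.72, Tnxb at 0.28 and 1.09 and Col6a3 at 0.18 and 0.47. Each of them passed against controls 5 to 8 alone (limma adjusted p 0.00616 to 0.0424) and none against controls 1 to 4 alone. The summed signal of this list was 97020 to 119867 at 1.5 µg/kg and 81921 to 98620 in controls.

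Genes of the nuclear pore and mRNA export had 2 calls. Rae1, an export factor that also acts in the spindle checkpoint, had 1399, 1838, 1704 and 1437 on its called probe set at 1.5 µg/kg, against 702 to 1195 in controls with a median of 939. All 4 arrays were above all controls (0.74 ± 0.14, limma adjusted p = 0.027), but another Rae1 probe set stood at 0.05 and below 0 against controls 1 to 4. Nup188, a scaffold protein of the pore, had 393, 304, 316 and 364 at 1.5 µg/kg, against 184 to 311 in controls, so array 2 overlapped the highest control (0.58 ± 0.12, adjusted p = 0.0435). In the list of the nuclear pore and export, which holds Rae1 and not Nup188, 7 of 15 genes were higher and 8 lower, with a median of −0.03 that changed sign under 5 of 23 alternatives. The pore protein gene Nup54 was among the lower ones (−0.55, adjusted p = 0.0955). Rae1 lost its call without arrays 1 or 2 or control 6 (adjusted p 0.0517 to 0.24). Nup188 lost it without arrays 1, 2 or 4 or any of controls 1, 3, 5, 6, 7 and 8 (0.0548 to 0.207).

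The remaining higher probe sets have varied roles. Mknk2, a kinase that phosphorylates the translation factor eIF4E, had 1918, 1742, 1461 and 1549 at 1.5 µg/kg, against 880 to 1339 with a median of 1207 in controls, with no overlap (0.49 ± 0.10, limma adjusted p = 0.0355). A further Mknk2 probe set was at 0.47 ± 0.16 and did not pass (adjusted p = 0.209). Zranb1, a deubiquitinase, had 975, 820, 510 and 656 at 1.5 µg/kg, against 356 to 532 in controls (0.67 ± 0.13, adjusted p = 0.032). Array 3 of that gene lay inside the control range. A further Zranb1 probe set was not called and lay between 0.07 and 0.28 under the alternatives. Cryl1, a dehydrogenase of sugar metabolism named for its likeness to a lens crystallin, had 536, 829, 641 and 533 on its called probe set at 1.5 µg/kg, against 172 to 422 in controls (1.01 ± 0.20, adjusted p = 0.032). All its TCDD arrays were above all controls, while another Cryl1 probe set was at 0.28. The called probe set without a gene symbol had 844, 1453, 799 and 944 at 1.5 µg/kg, against 372 to 818 in controls (0.83 ± 0.16, adjusted p = 0.0274). Of the leave-one-out fits, those without array 1 or array 2 ended the calls of these 4. So did leaving out controls 1, 3 or 5 for Mknk2, controls 3, 5, 6 or 7 for Zranb1, controls 3 or 6 for Cryl1 and controls 5 or 6 for the probe set without a symbol (adjusted p 0.0517 to 0.303 over the 4).

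**Figure D2:**
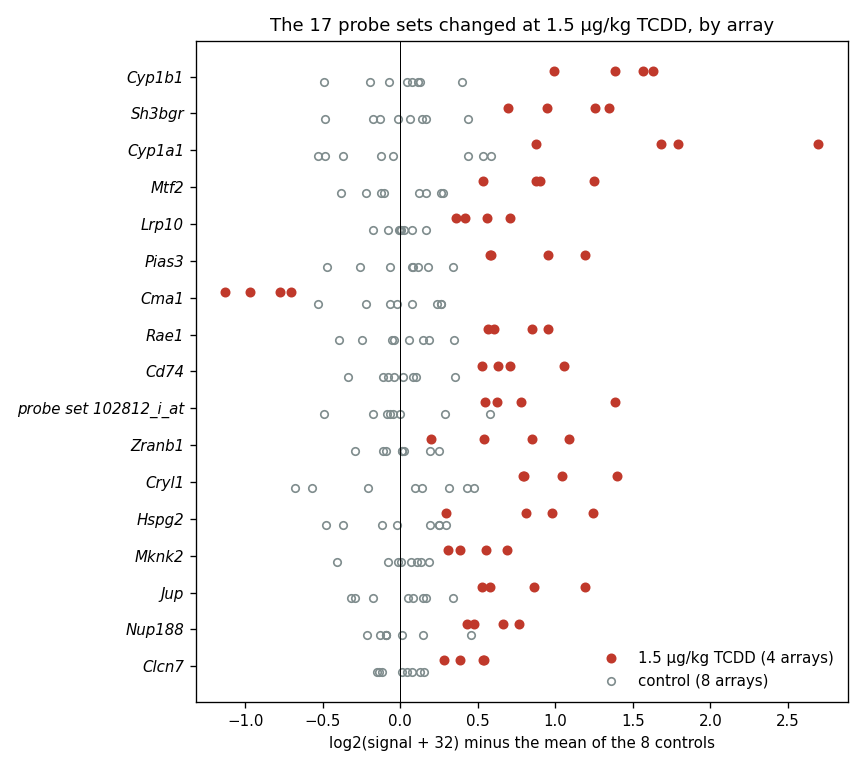
Each of the 17 changed probe sets by array, as log2(signal + 32) minus the mean of the 8 controls, with 1.5 µg/kg TCDD as filled red points and controls as open grey points. The groups do not overlap for 14 of the 17, and array 4 stands highest for Cyp1a1.

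The gene that fell was Cma1, the mast cell chymase. Its signals were 261, 212, 247 and 187 at 1.5 µg/kg, against 300 to 542 with a median of 455 in controls. All 4 TCDD arrays lay below all controls, at 227 ± 33.7 (SD, n = 4) against 453 ± 86.5 (SD, n = 8) in controls, a log2 change of −0.89 ± 0.16 (limma adjusted p = 0.0184). In RNA of whole hearts, fewer mast cells and less of this RNA per mast cell cannot be told apart. The call ended without array 1, 2 or 4 (adjusted p 0.0504 to 0.156) and against controls 5 to 8 alone (−0.77, adjusted p = 0.0506). The other 2 Cma1 probe sets lay below the filter. Of 12 mast cell genes on the array 7 were measured, 5 of them lower, and Cma1 was the 1 called. The protease Mcpt1 had 28.1, 46.5, 33.5 and 37.4 at 1.5 µg/kg, against 39.7 to 159 in controls (−0.91 ± 0.25, adjusted p = 0.148), and the carboxypeptidase Cpa3 was at −0.47 ± 0.18. The stem cell factor receptor Kit (0.09), the transcription factor Gata2 (0.11), the tryptase Tpsb2 (−0.08) and the histidine decarboxylase Hdc (−0.19) lay closer to 0. The high-affinity IgE receptor genes Fcer1a and Ms4a2 lay below the filter in both groups. The summed signal of the 12 genes on the array was 1617 to 1957 at 1.5 µg/kg and 2015 to 2382 in controls. That sum holds Cma1 itself and the genes below the filter, so it is no separate result.

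Among genes of antigen presentation and of leukocytes, 1 rose. Cd74, the invariant chain that escorts MHC class II proteins, had 220, 307, 203 and 235 at 1.5 µg/kg, against 97.4 to 177 with a median of 130.0 in controls. No TCDD array overlapped the controls (0.73 ± 0.14, limma adjusted p = 0.0274). The MHC class II chain H2-Eb1 had 251, 247, 92.2 and 225, against 32.4 to 281 in controls, and did not pass (0.66 ± 0.35, adjusted p = 0.447). Of 11 MHC class II genes on the array 3 were above the filter, all 3 higher. The smallest change was that of H2-DMa (0.21), which was −0.00 without array 1. As the filter counts arrays of every dose, H2-Eb1, with a control median of 77.3, could enter it through its TCDD arrays. The count and the list median are therefore no separate result. H2-Aa and H2-Ab1 averaged 20.8 and 58.8 at 1.5 µg/kg and 16.1 and 47.2 in controls, near the background. Cd74 lost its call without arrays 1 or 2 or control 6 (adjusted p 0.0548 to 0.249). It also lost it with the 3′ to 5′ ratio as a covariate (0.0573), without the 4 arrays of highest β-actin ratio (0.0572), without a filter (0.055) and in a fit of the groups compared only (0.0907). Controls 1 to 4 alone (0.176), the replicate block (0.226) and a minimum change of 1.2-fold ended the Cd74 call too.

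All 16 measured macrophage and leukocyte genes, of 23 on the array, had a higher mean at 1.5 µg/kg with a median change of 0.24, and 0 passed the adjusted test. Over all kept genes 51.7% were higher. The complement gene C1qa had 568, 691, 646 and 615 at 1.5 µg/kg, against 402 to 563 in controls, with every TCDD array above every control (0.31 ± 0.11, limma adjusted p = 0.221). C1qc was at 0.39, the neutrophil protein gene S100a8 at 0.50 and the surface glycoprotein gene Cd52 at 0.26. The summed signal of the 23 genes on the array was 5810 to 6476 at 1.5 µg/kg and 4798 to 5364 in controls. It was 6069 to 6927 at 3 µg/kg and 6502 to 7000 at 6 µg/kg, where the median changes were 0.26 and 0.32. The higher values are thus not particular to 1.5 µg/kg. The pan-leukocyte gene Ptprc averaged 19.6 at 1.5 µg/kg and 25.1 in controls, below the filter. Of 10 T and B cell genes on the array 3 were measured, with a median of 0.01, and the B cell gene Ms4a1 was at −0.40 ± 0.23. Markers of neighbouring organs moved in some arrays. Liver plasma protein genes had scores, the mean log2 difference from the control mean, of −0.04, 0.33, 1.03 and 0.25 at 1.5 µg/kg and −0.44 to 0.56 in controls; albumin (Alb) reached 2147 in array 3, above the highest control at 984. Lung epithelial genes had scores of −0.32, 0.72, 0.35 and 1.30 at 1.5 µg/kg and −1.01 to 1.19 in controls, with surfactant Sftpc at 3076 in array 4. Their part in the leukocyte and mast cell values was not tested.

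Lists of heart muscle function had no called gene with its brightest probe set. In the sarcomere list 16 of 25 genes were lower with a median of −0.04, against 48.3% lower over all kept genes. The adult myosin heavy chain Myh6 had 14678, 12593, 13075 and 12582 at 1.5 µg/kg, against 13853 to 17127 in controls (−0.23 ± 0.08, limma adjusted p = 0.239). The myosin heavy chain Myh7 was at 0.04 ± 0.09 on its brighter probe set and 0.28 ± 0.32 on another, and did not pass. Creatine kinase Ckm had 1926, 1598, 1872 and 1856, against 2073 to 2567 in controls, all below every control (−0.30 ± 0.08, adjusted p = 0.133). The natriuretic peptide genes Nppa and Nppb, load-responsive hormones of the heart, were at −0.05 ± 0.09 and −0.25 ± 0.13, and the sign of Nppa turned under 3 alternatives. Cardiac transcription factors were higher in 10 of 15 with a median of 0.18, and 6 reached p under 0.05 in that direction before adjustment. Beside these counts stand 51.7% of all kept genes higher and 7.45% of probe sets higher with p under 0.05. Hand1, which patterns the left ventricle and outflow tract, had 625, 723, 318 and 447 at 1.5 µg/kg, against 142 to 438 in controls (0.71 ± 0.25). Hand2 was at 0.47, Mef2a at 0.48 and Tbx2 at 0.47, with adjusted p between 0.194 and 0.264.

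Genes of energy metabolism and protein turnover had lower means in most cases, with 0 called. Over the array 48.3% of kept genes were lower, and 5.16% of probe sets were lower with p under 0.05 before adjustment. Oxidative phosphorylation genes were lower in 55 of 58 with a median of −0.15, and 13 reached p under 0.05 before adjustment. The ATP synthase subunit Atp5a1 had 12867, 11795, 11390.0 and 12649 at 1.5 µg/kg, against 12876 to 14402 in controls, just below every control (−0.16 ± 0.06, limma adjusted p = 0.258). Ndufv2 of complex I was at −0.22, Atp5k at −0.33 and Cox8b at −0.35. The scores of the list were −0.20, −0.09, −0.31 and −0.01 at 1.5 µg/kg and −0.14 to 0.21 in controls, so arrays 2 and 4 lay within the control range. Fatty acid uptake and oxidation genes were lower in 18 of 24 with a median of −0.18. The fatty acid translocase Cd36 had 161, 78.6, 172 and 130.0 at 1.5 µg/kg, against 168 to 307 in controls (−0.64 ± 0.16, adjusted p = 0.111). The fatty acid binding protein Fabp4 was at −0.74 ± 0.25, Decr1 at −0.41, the carrier Fabp3 at −0.47 and the thioesterase Acot1 at −0.37. Fabp4 and Cox8b also belong to the brown fat list. There 5 of 7 measured genes were lower, with a median of −0.23 and 0 called. The part of fat tissue in these values was not tested. Proteasome subunits were lower in 25 of 29 with a median of −0.17, and 10 of these reached p under 0.05 before adjustment. Psmd8 of the lid had 804, 869, 1024 and 849 at 1.5 µg/kg, against 987 to 1251 in controls (−0.29 ± 0.08, adjusted p = 0.151), and Psmd14, the lid deubiquitinase, was at −0.45. Glycolysis genes were lower in 14 of 19 (median −0.10), mitosis genes in 23 of 32 (−0.06) and cytosolic ribosomal proteins in 17 of 21 (−0.06).

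Growth factor lists had more higher than lower genes, where 51.7% of all kept genes were higher. In the insulin-like growth factor axis 9 of 10 genes were higher with a median of 0.16 and 0 called. The insulin receptor substrate Irs2 had 395, 320, 365 and 216 at 1.5 µg/kg, against 70.3 to 350.0 in controls, so 2 arrays overlapped the controls (1.09 ± 0.34, limma adjusted p = 0.192). The receptor Igf1r was at 0.53 and the binding protein Igfbp4 at 0.43. In the TGF-β and BMP list 16 of 23 were higher with a median of 0.09, among them the ligands Tgfb1 (0.58), Tgfb3 (0.49) and Bmp4 (0.33) and the latent TGF-β binding protein Ltbp4 (0.38). Retinoid signalling genes were higher in 6 of 7 with a median of 0.26: the receptor Rara had 461, 466, 295 and 270 at 1.5 µg/kg, against 114 to 277 in controls (0.79 ± 0.21, adjusted p = 0.126). In the list of Nrf2 targets and antioxidant genes 11 of 25 were higher and 14 lower (median −0.05, with another sign under 6 of 23 alternatives), with the secreted superoxide dismutase Sod3 at 0.41, heme oxygenase Hmox1 at 0.36 and glutathione reductase Gsr at 0.32 on the higher side. On the lower side stood the glutathione transferase Gsta4 at −0.21, the mitochondrial superoxide dismutase Sod2 at −0.17 and the peroxiredoxin Prdx2 at −0.14. None of these passed.

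**Figure D3:**
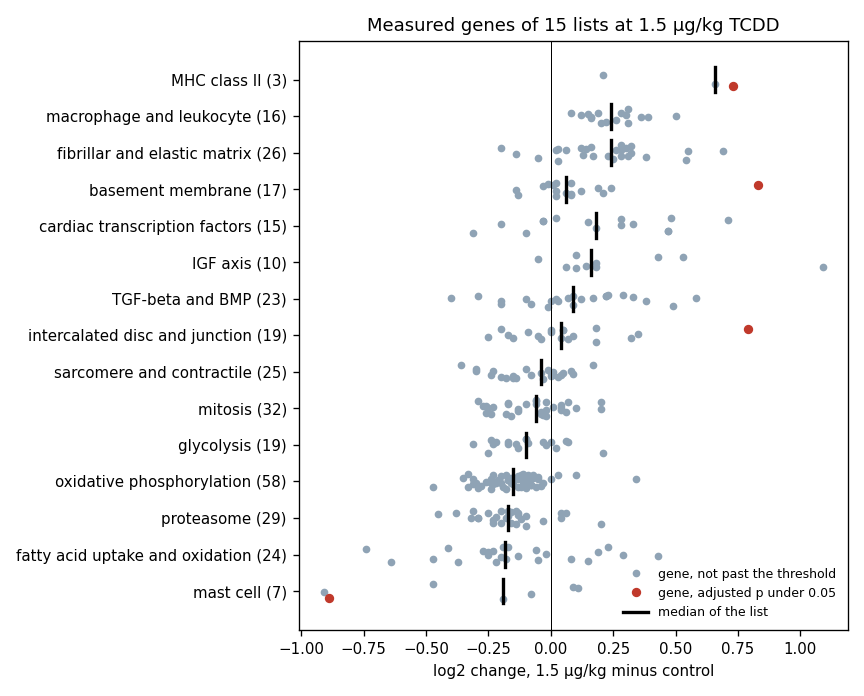
Log2 change at 1.5 µg/kg TCDD minus control for the measured genes of 15 lists, one point per gene with its brightest probe set, black bars at the medians and the number of genes in brackets. The 4 red points, Cd74, Hspg2, Jup and Cma1, passed the adjusted threshold. The medians run from 0.66 for MHC class II, where the filter could favour higher genes, to −0.19 for mast cells.

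Just beyond the threshold, the 10 higher genes with the next smallest p ranged from 0.39 to 0.92. Gstm1, a glutathione transferase, had 330, 493, 471 and 534 at 1.5 µg/kg, against 218 to 339 in controls (0.69 ± 0.15, limma adjusted p = 0.0522). The procollagen protease Bmp1 (0.63), the linker histone H1f10 (0.61) and the thromboxane receptor Tbxa2r (0.92) had all 4 arrays above all controls. On the lower side the 10 next genes ranged from −0.36 to −0.65. Aimp1, a scaffold of the aminoacyl tRNA synthetase complex, had 1075, 854, 1077 and 946 at 1.5 µg/kg, against 1128 to 1449 in controls (−0.41 ± 0.09, adjusted p = 0.0675). The uridine phosphorylase Upp1 (−0.65), the RNA polymerase III subunit Polr3k (−0.61) and the chromosome kinesin Kif4 (−0.36) had all 4 arrays below all controls. The synthetase Mars1 was at −0.38 and the mitochondrial co-chaperonin Hspe1 at −0.36. Gstm1 passed without array 1 or controls 7 or 8 (0.0396 to 0.0469), and Aimp1 without array 3 or control 8 (0.0386 and 0.0402).

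Controls 1 to 4 and controls 5 to 8 gave different numbers of calls. Against controls 1 to 4 alone 3 probe sets passed, and against controls 5 to 8 alone 153 passed, 103 higher and 50 lower, with 2 in common. Of the 17 called with all 8 controls, 3 passed with controls 1 to 4 and 15 with controls 5 to 8. The sizes of the 17 differed less: all 17 kept their direction against both, and 10 were larger against controls 5 to 8. Pias3 was at 0.67 with controls 1 to 4 and at 0.98 with the other 4, Nup188 at 0.45 and 0.71, and Sh3bgr at 1.22 and 0.90. Genes not called could differ more in either direction: in the same order Irs2 was at 0.57 and 1.60, Mef2a at 0.16 and 0.81 and Alb at 1.63 and 0.42. The labels do not say what separates the sets beyond their numbers, so a batch was not tested.

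**Figure D4:**
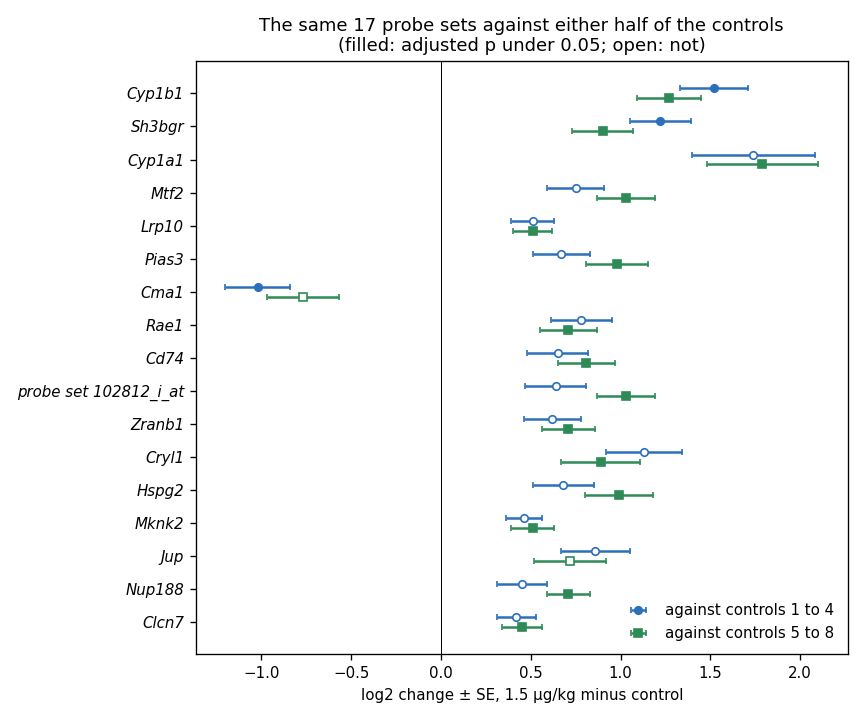
Log2 change ± SE of the 17 probe sets at 1.5 µg/kg TCDD minus control, against controls 1 to 4 (blue circles) and against controls 5 to 8 (green squares), with filled symbols past the adjusted threshold. Every symbol keeps its side of 0, with 3 filled circles and 15 filled squares.

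Against the next dose, 3 µg/kg, 0 of 8097 probe sets differed by limma (0% in total, 0% higher and 0% lower at 1.5 µg/kg), and 226 (2.79%) reached p under 0.05 before adjustment. Among the 17, Sh3bgr showed the largest gap, with 1440.3, 1794, 1914 and 1208 at 1.5 µg/kg, against a mean of 880 ± 74.5 (SD, n = 4) at 3 µg/kg (0.81 ± 0.18, adjusted p = 0.966). Set against the same controls, Cyp1b1 had log2 changes of 1.39, 1.45 and 2.04 at 1.5, 3 and 6 µg/kg and Cyp1a1 had 1.76, 2.12 and 2.93. Cma1 had −0.89, −0.80 and −1.09 and Cd74 had 0.73, 0.61 and 0.92. Neither passed at 3 µg/kg (limma adjusted p 0.144 and 0.301), and both passed at 6 µg/kg (0.00263 and 0.00285). For the other called genes with a symbol the change at 6 µg/kg lay between −0.11 for Pias3 and 0.33 for Rae1. These comparisons share their controls. The 17 were chosen for their change at 1.5 µg/kg, so a smaller change at another dose is no finding.

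Against 6 µg/kg, 28 probe sets differed (0.346%; 24 higher at 1.5 µg/kg, 0.296%, and 4 lower, 0.0494%; limma, adjusted p under 0.05), and 15.6% reached p under 0.05 before adjustment. The 4 arrays of the doses did not overlap for any of the 28, as for 8.83% of all kept probe sets. Of the 28, 5 had also passed against controls: Mtf2, Pias3, Sh3bgr, Zranb1 and Clcn7. Both comparisons use the same 4 arrays at 1.5 µg/kg. Igf2bp1, an RNA-binding protein of fetal tissues, had 1029.5, 951, 719 and 962 at 1.5 µg/kg, against 381, 412, 303 and 415 at 6 µg/kg (1.21 ± 0.18, adjusted p = 0.00848). All its arrays at 1.5 µg/kg stood above those at 6 µg/kg, and 3 of the 4 also stood above the highest control. The controls ran from 385 to 801, and 2 of the 4 arrays at 6 µg/kg lay below them. Ints9, a subunit of the Integrator complex that processes small nuclear RNAs, had 179, 181, 206 and 262 at 1.5 µg/kg, against 101, 57.1, 25.2 and 28.7 at 6 µg/kg (1.56 ± 0.25, adjusted p = 0.00941). Its controls ran from 106 to 255. Ank3, which anchors membrane proteins to the spectrin skeleton, was higher at 1.5 µg/kg by 1.31 ± 0.21 and the nucleoside transporter Slc29a2 by 1.39 ± 0.25. The collagen genes Col4a5 and Col18a1 were higher by 0.65 and 0.70. Against controls, Ank3 was at 0.78 at 1.5 µg/kg and −0.53 at 6 µg/kg, and Slc29a2 at 0.49 and −0.90. In the same order Col4a5 was at 0.21 and −0.44 and Col18a1 at 0.18 and −0.52.

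The 4 probe sets lower at 1.5 than at 6 µg/kg were those of Itgav, Pam, Atp5l and Hspe1. Itgav, the integrin αV chain, had 49.6, 41.9, 43.1 and 132 at 1.5 µg/kg, against 321, 232, 286 and 405 at 6 µg/kg (−1.86 ± 0.40, limma adjusted p = 0.0408). Its controls ran from 78.6 to 327. Hspe1, at −0.53 ± 0.10, had 2383, 2252, 2362 and 2883 at 1.5 µg/kg, against 3487, 3555, 3866 and 3340 at 6 µg/kg. The count was sensitive to single arrays: 3 or 2 without array 1 or array 2 at 1.5 µg/kg, and 12, 2 and 6 without arrays 1, 2 and 3 at 6 µg/kg. The 3′ to 5′ ratio was −0.034 to 0.073 at 1.5 µg/kg and 0.057 to 0.160 at 6 µg/kg, and with it as a covariate 0 probe sets differed.

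**Figure D5:**
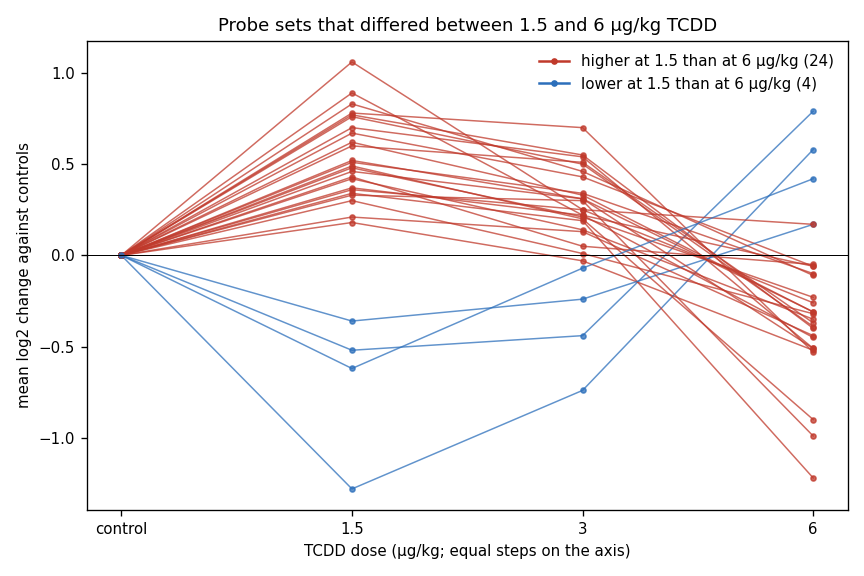
Mean log2 change against the same 8 controls for the 28 probe sets that differed between 1.5 and 6 µg/kg TCDD, over control, 1.5, 3 and 6 µg/kg at equal steps, red for the 24 higher at 1.5 µg/kg and blue for the 4 lower. The probe sets were chosen for the gap between 1.5 and 6 µg/kg, so that gap is no finding of the plot.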

How the data were processed

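The intensity values that the authors deposited are linear MAS5 signals for each of 12488 probe sets of the Affymetrix MG-U74Av2 array, per the submitters' processing notes, which name MAS5 and no version. Per the labels' protocols, total RNA was isolated with Trizol, and labelled cRNA was made by the array maker's recommendations. The trimmed means of the deposited intensity lie near 500 on every array.

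Signals were brought to exactly 500 as the 2% trimmed mean per array, then transformed as log2(signal + 32). The 66 AFFX control probe sets were left out. Of the other 12422, 8097 for 6099 genes were kept, namely those reaching the 40th percentile of an array on at least 4 of the 20. Platform annotation gave 1 symbol for 10833 probe sets, several for 396 and none for 1193, and RefSeq (GRCm38.p6) listed 10817 of those with 1 symbol. Gene positions and promoters are RefSeq's, and the positions of the probes were not used.

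Models were fitted over all 20 arrays in 1 fit with limma 3.58.1 in R 4.3.3 (lmFit and eBayes, the prior variance following intensity), two-sided, with Benjamini-Hochberg adjustment over the 8097 and a threshold of 0.05. The 5 AhR targets below the filter were compared by an exact permutation test over 495 splits. Lists were described by counts and medians over the brightest probe set of each gene, with no test. The probe sets named were drawn mainly from a rule. It took all that passed, the next 10 in each direction, 12 genes fixed by name and up to 4 per list by smallest p. To these it added the probe sets past the threshold between doses and further probe sets of called genes. Not all of them are printed. Some list members outside the rule are printed, among them Kit, Gata2, Gsta4 and Sod2. The members, lists and rules were chosen with earlier results of these data known.

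Control and TCDD arrays share the numbers 1 to 4. Deviations of same-numbered arrays correlated at 0.09, −0.02, −0.09 and 0.00, so the numbers were not taken to pair the samples. Data were simulated from the spread of these arrays, with 200 of 8097 probe sets changed or with none. The comparison of 1.5 µg/kg with controls recovered 91.5% of the changed ones at 2-fold and 59% at 1.5-fold. Of its 192 calls at 2-fold, 9 were unchanged probe sets, as were 7 of its 125 calls at 1.5-fold. It called 0 when none was changed. These rates describe the simulated data, and the share of false calls in the real data was not tested. Figures were made in Python 3.11 with matplotlib 3.10.9. Alternatives were quantile normalization, unscaled deposited signals, other pseudocounts (1 and 100), keeping all probe sets or those past the 60th percentile, either set of 4 controls, the replicate number as a block, fits with the groups compared only, a prior without the trend, weights per array, testing against 1.2-fold, the 3′ to 5′ ratio as a covariate, and leaving out each array. Leaving out the 4 arrays whose β-actin 3′ probe set most exceeded the middle one (controls 1, 2 and 6 and array 4 at 6 µg/kg), and the covariate for the dose contrasts, were chosen after seeing the data.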

Additional observations from a re-analysis of the deposited data

Results flagged for a closer look

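Of 128 groups of 4 or 8 arrays examined, 7 held a sample whose distance from the others exceeded Dixon's 95% critical value, where chance flags about 1 in 20 groups. Among single genes, control 6 had a Mknk2 level of 9.83 on the log2 scale, against 10.16 to 10.42 in the other controls. Among list scores at 1.5 µg/kg, array 4 was lowest for mast cell genes at −0.51 (others −0.29 to −0.25), array 1 highest for intercalated disc and junction genes at 0.17 (others 0.01 to 0.04), and array 3 lowest for cytosolic ribosomal proteins at −0.24 (others −0.02 to 0.01). Among controls, control 6 was lowest for cardiac transcription factors at −0.21 (others −0.06 to 0.07) and highest for interferon and MHC class I genes at 0.31 (others −0.15 to 0.02), and control 5 was highest for skeletal muscle genes at 0.16 (others −0.06 to 0.03).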

How the results depend on the processing

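The count of 17 was 15 with quantile normalization, 17 with signals as deposited, with a pseudocount of 1 and with a filter at the 60th percentile, 18 with a pseudocount of 100, and 13 without the intensity trend. It was 8 without a filter, 3 with controls 1 to 4 alone, 153 with controls 5 to 8 alone, 8 in a fit of the groups compared only, 26 with array weights, 2 with a minimum change of 1.2-fold, 42 with the 3′ to 5′ ratio as a covariate and 30 when the 4 arrays with the highest β-actin 3′ signal relative to the middle one were left out. Leaving out 1 array gave 4 to 51: 4 without array 1 or array 2 at 1.5 µg/kg, 51 without array 3, and 8 without control 6. With the replicate number as a replicate block over controls 1 to 4 the count was 2; 1 of 4 arrays at 1.5 µg/kg correlated best with its own number. Of the 17, Cyp1b1, Sh3bgr and Cyp1a1 were called whichever array was left out. The number of the 17 that still passed was 8 without a filter, 8 in the fit of the groups compared only, 11 with the covariate and 12 without the 4 arrays. Against 6 µg/kg the count of 28 was 44 with quantile normalization, 9 without a filter, 99 with the replicate block, 181 with array weights, 0 with the 3′ to 5′ ratio as a covariate, 137 without the 4 arrays, and 2 to 38 leaving out 1 array. Against 3 µg/kg it was 0 in all that were run. The causes were not tested, except that no filter tests more probe sets and leaving out arrays uses fewer.

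Of 3457 values of named probe sets under alternatives, 28 turned their sign, none of a called probe set, and so did 2 values of Cyp1a2 below the filter. With controls 5 to 8 alone Nppa was at 0.05, Hsp90aa1 at −0.04, the further Mtf2 probe set at −0.13 and Cyp1a2 at −0.15. With controls 1 to 4 alone, and likewise with the replicate block, Tiparp was at −0.04 and the further Rae1 probe set at −0.03. With quantile normalization Tiparp was at −0.01, with a pseudocount of 100 Cyp1a2 at −0.00, with array weights the further Mtf2 probe set at −0.03 and with the covariate the further Cyp1a1 probe set at 0.02. Without the 4 arrays Nppa was at 0.02 and Ahr at −0.07. Leaving out 1 array gave −0.11 to 0.01 for Nppa, −0.03 to 0.15 for Ahr, −0.22 to 0.19 for Tiparp, −0.16 to 0.03 for Nqo1, −0.04 to 0.11 for Hsp90aa1, −0.00 to 0.50 for H2-DMa, −0.02 to 0.14 for the further Mtf2 probe set, −0.01 to 0.11 for that of Rae1 and −0.01 to 0.11 for that of Pias3. Of 964 list medians 933 stayed within 1 SD of the control scores.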

Other observations

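Some of the widest mean differences did not pass, and these genes were chosen after their values were seen. Reg3g, a secreted lectin of epithelia, averaged 777 at 1.5 µg/kg and 214 in controls on its brighter probe set, a log2 change of 2.29 with a standard error of 0.99 (limma adjusted p = 0.34), and a further probe set stood at 0.99 ± 0.62. The transcription factor gene Nfix was at 1.11 (adjusted p = 0.0879) and 0.40, the translation repressor Eif4ebp2 at 1.23, 0.59 and 0.31, the Argonaute gene Ago2 at 1.14 and the kinase gene Mark4 at 1.16.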
